A study of Mus musculus with 3 samples.

Results

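The cells described here are MIM-treated mouse astrocytes in which transcripts of Cldn10 and Slc4a4 were counted together at least 2 times. The MIM-treated library held 14964 cells in which 200 or more genes were detected and mitochondrial transcripts made up no more than 20%, and 1367 of them met the rule, which is 9.14% (exact 95% binomial interval 8.68 to 9.61). The 3 libraries of the series held 33927 such cells. The rule also required 0 unique molecular identifiers (UMIs, each standing for 1 captured transcript) over Olig2, Lhfpl3 and Sox8, at most 1 UMI over the mitosis genes Top2a, Cenpf, Ube2c, Birc5, Ccnb2, Hmmr, Cdca8 and Ckap2l, and at most 1 UMI of Hes5 and Egfr together. The cells were chosen by the UMIs of these 15 genes, so their levels are not findings and stay out of every count. All other genes were measured in the same cells, so the comparisons inside this library describe the cells and support nothing further.

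Slc4a4 encodes the electrogenic sodium bicarbonate cotransporter NBCe1, which astrocytes use to move bicarbonate and buffer pH around active neurons. Cldn10 encodes a claudin, a family of tight junction proteins, and its transcript is a marker of astrocytes and their precursors. Astrocytes take up glutamate and potassium, supply glutamine and lipoproteins to neurons, and are joined to each other by gap junctions.

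All 3 libraries came from C57BL/6 mouse cortex, with an age label of embryonic day 14.5. Neural stem cells were grown as neurospheres without serum, with EGF and FGF2. Untreated astrocytes stayed in a differentiation medium with 10% serum. MIM is the name in the labels for a medium without serum that held B27, N2, 20 ng/mL of FGF2 and up to 6 metabolites: the amino acids glycine, cysteine, threonine and methionine, the polyamine putrescine and the methyl donor S-adenosylmethionine. Cells were collected by day 5 at the latest, and neither the combination nor the day of this library is given. Astrocytes could be made from neurospheres or from postnatal cortex after a sort for GLAST (the protein of Slc1a3), and which source was used here is not stated. Serum, metabolites, base medium and FGF2 all changed at once between untreated and MIM-treated cells, and treatment and library cannot be told apart. Each group was 1 library, so no test was possible, and all intervals cover counting error only.

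The members held 5775206 UMIs, with a median of 4172 per cell and 1400.0 detected genes. The other 9137 non-dividing MIM-treated cells had a median of 2615 UMIs, and the 9808 non-dividing untreated astrocytes had 5089. Mitochondrial transcripts took 2.23% of the members' UMIs and Malat1 11.5%. Ribosomal protein transcripts took 6.22%, against 8.39% in the other MIM-treated cells and 2.88% in untreated astrocytes. Of the members' barcodes, 4 also occurred in the untreated library and 4 in the neural stem cell library. Scrublet called 0 doublets in each library, a share too low for so many cells to be believed, and no cell was removed as a doublet.

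Slc4a4 (chr5:88886818-89239653, mm10) supplied most of the UMIs that chose the cells. Its level was 514 CPM (UMIs per 1000000 UMIs of the group) in the members, 143 in the other non-dividing MIM-treated cells and 70.0 in untreated astrocytes. Cldn10 (chr14:118787908-118875489) stood at 176, 44.7 and 4.08 CPM in the same order. By gene, 781 members had Slc4a4 UMIs alone, 94 had Cldn10 UMIs alone and 492 had both. The 2 genes went together little in MIM-treated cells that met the negative criteria and were thinned at random to 2000 UMIs. There, Slc4a4 was detected in 35.3% of cells with 0 UMIs of Cldn10, 39.8% with 1 and 40.2% with 2 or more. The Pearson correlation of their UMIs across these cells was 0.025. The members lay close to the threshold: 688 of them, or 50.3%, had exactly 2 UMIs and 149 had 5 or more, with a maximum of 13. A further 1299 cells met the other criteria with 1 UMI and fell just outside. Sparcl1, which the rule did not use, stood at 1066 CPM in the cells with 2 UMIs and at 871 CPM in those with 1. Of the 2304 non-dividing cells with at least 2 UMIs, 755 were left out for a UMI of Olig2, Lhfpl3 or Sox8 and 182 for Hes5 and Egfr.

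**Figure D1:**
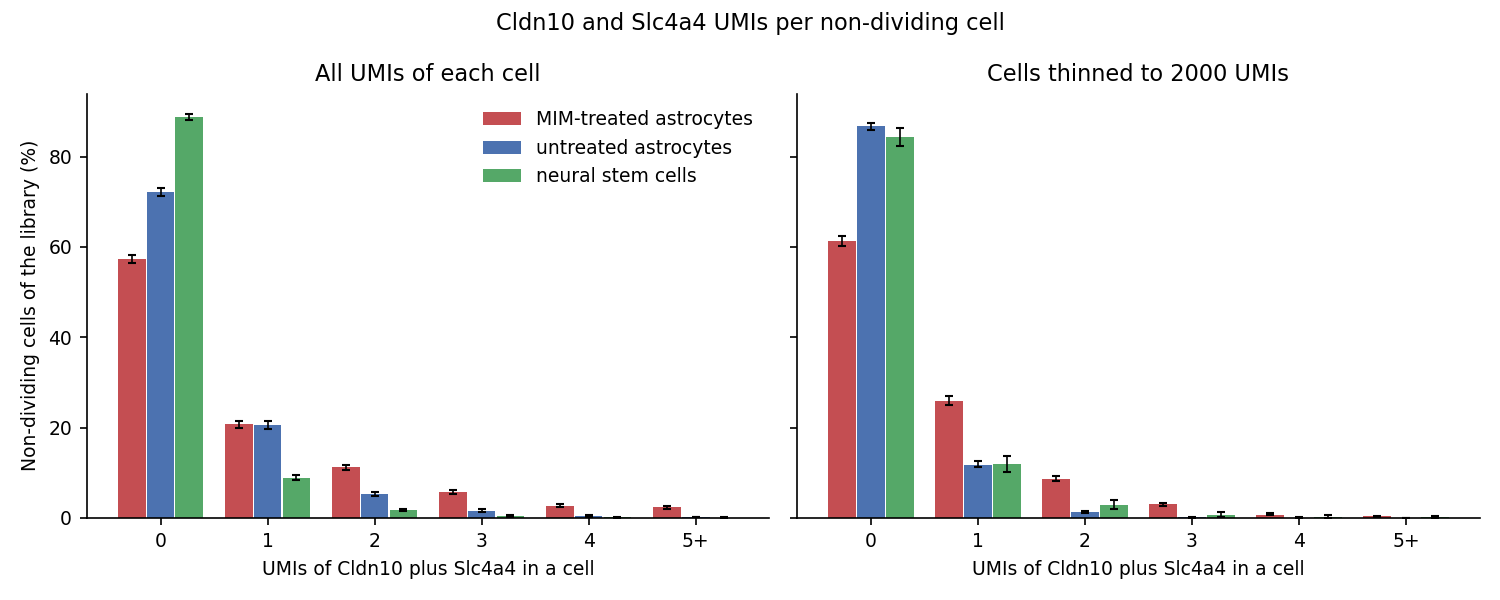
Share of non-dividing cells (%) by UMIs of Cldn10 plus Slc4a4 in a cell, in 3 libraries, with all UMIs (left) and after thinning each cell to 2000 UMIs (right); bars are shares and whiskers exact 95% binomial intervals. After thinning, 2 UMIs were found in 8.69% of MIM-treated cells, 1.33% of untreated astrocytes and 2.77% of neural stem cells.

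The rule itself depends on depth, so it was also applied after each cell had been thinned at random to 2000 UMIs. It then held in 738 of 11354 MIM-treated cells (6.50%, 6.05 to 6.97), in 129 of 9141 untreated astrocytes (1.41%, 1.18 to 1.67) and in 34 of 1615 neural stem cells (2.11%, 1.46 to 2.93). These shares are set by the rule genes and describe 1 library each. The negative criteria were also applied to the thinned counts, which loosens them, so not all of these cells met the full rule. With the negative criteria on all UMIs, 383 MIM-treated cells had 2 thinned UMIs of Cldn10 and Slc4a4 and 172 had 3 or more. In untreated astrocytes these were 113 and 12, and in neural stem cells 23 and 6. Thinning left out 3610, 677 and 7530 shallower cells. Without thinning the untreated share was 6.83% and the neural stem cell share 1.34%.

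Against the astrocyte label the markers were divided. Members held high levels of Apoe, Fabp7, Slc1a3, Glul and Kcnj10, while Gfap and Aqp4, the most used markers of mature astrocytes, were low. At least 1 UMI of Gfap or Aqp4 was found in 16.5% of members (14.5 to 18.5), 6.97% of other non-dividing MIM-treated cells and 85.4% of untreated astrocytes. Thinned to 2000 UMIs, Gfap was detected in 1.39% of members and Aqp4 in 6.63%, against 28.8% and 57.1% of untreated astrocytes and 0.246% and 2.46% of neural stem cells outside the rule. The term astrocyte-like therefore does not rest on Gfap and Aqp4. The 5 genes named first were picked from longer lists, and Fabp7 also belongs to the neural progenitor list. The other non-dividing MIM-treated cells held these genes too. Of 24 astrocyte genes at 50 CPM, 9 were 2-fold higher than in untreated astrocytes and 5 lower, where 9.94% and 19.5% of all genes were.

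Compared with the other non-dividing cells of their library, the members held more transcripts of astrocyte genes and fewer of oligodendrocyte lineage and cell cycle genes, by modest amounts. At a 2-fold difference with at least 50 CPM in either group, 0 of 2278 genes (0%) were higher in the members and 25 (1.10%) were lower. At 1.5-fold, a threshold added after the values were seen, 35 genes (1.54%) were higher and 85 (3.73%) lower. These counts changed when the other cells were weighted to the members' UMIs per cell. Then 0 genes were higher and 15 lower at 1.5-fold, and 1 was lower at 2-fold, Gadd45g. Within the cluster that held most members, 0 genes were higher and 1 lower at 1.5-fold. Depth and kind of cell cannot be told apart here. The 2 shallowest clusters, with medians of 1487 and 798 UMIs, held 0 and 15 members, so weighting also changed which kinds of cells were compared. Weighted ratios are therefore given for the genes the comparison turns on.

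The other cells were not of 1 kind, and the members were also set against 3 sets of them that differed in depth. Against the 792 non-dividing cells with 2 or more UMIs of Hes5 and Egfr, whose median was 3573 UMIs, 0 of 2234 genes were higher at 2-fold and 3 (0.134%) lower, and at 1.5-fold 7 (0.313%) were higher and 24 (1.07%) lower. Against the 4391 cells with a UMI of Olig2, Lhfpl3 or Sox8, whose median was 2663 UMIs, 5 of 2347 genes (0.213%) were higher and 54 (2.30%) lower at 2-fold, and 78 (3.32%) and 198 (8.44%) at 1.5-fold. Against the 2961 cells that met every negative criterion but had 0 UMIs of Cldn10 and Slc4a4, 2 of 2287 genes (0.0875%) were higher and 29 (1.27%) lower at 2-fold, and 42 (1.84%) and 132 (5.77%) at 1.5-fold. Those cells were shallow, with a median of 2029 UMIs, and weighting them for depth left 7 higher and 8 lower at 1.5-fold. The first 2 sets were not weighted. Sparcl1 stood at 1132 CPM in the members, 822 in the Hes5 and Egfr cells, 564 in the lineage cells and 546 in the cells with 0 UMIs. Sox4 stood at 59.0, 118, 227 and 178 CPM in the same order.

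Among the potassium and pH handling genes, Kcnj10, the inward rectifier Kir4.1 that clears potassium, stood at 112 CPM in members (103 to 121) and 70.4 in the other cells (67.2 to 73.7), with a log2 ratio of 0.66 and 0.49 after weighting. Atp1b1, a sodium pump subunit, stood at 95.4 against 60.2 CPM, with a ratio of 0.66 and 0.30. Fxyd1, a regulator of the sodium pump, stood at 128 against 81.9 CPM, with 0.64 and 0.41. These were the 3 genes called at 1.5-fold among the 7 of the list at 50 CPM, where 1.54% of all genes were higher. After weighting for depth 0 of the 7 were called.

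Glul, the glutamine synthetase that turns glutamate into glutamine, stood at 276 CPM in members (263 to 290.1) and 165 in the other cells (160.2 to 170.1), 1.67-fold higher (1.58 to 1.77), with a weighted log2 ratio of 0.48. Slc1a3, the glutamate transporter GLAST, stood at 484 against 355 CPM, with a log2 ratio of 0.45 and 0.27 after weighting. Slc6a11, the GABA transporter GAT-3, was scarcer at 37.4 against 21.7 CPM, with 0.76 and 0.62. These 3 genes were higher in the members, but Slc1a3 missed the 1.5-fold threshold and Slc6a11 the 50 CPM minimum. Over the glutamate, GABA and glycine list 16 of 22 measured genes were above 0, against 3921 of 11717 over all genes. Of its 6 genes at 50 CPM, 1 was higher at 1.5-fold, where 1.54% of all genes were, and 0 after weighting.

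Gja1, which encodes the gap junction protein connexin 43, stood at 93.5 CPM in members (85.8 to 102) and 55.1 in the other cells (52.3 to 58.0), with a weighted log2 ratio of 0.57, the largest among the 13 genes named as higher. Aqp4, the water channel of astrocyte endfeet, stood at 37.7 against 24.1 CPM, with 0.63 and 0.41 after weighting. Gfap, the intermediate filament protein, stood at 9.18 against 4.20 CPM, with 0.97 and 0.52. Both were low in either group.

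Apoe, the main lipid carrier made by astrocytes, was the most abundant astrocyte gene, at 28870.1 CPM in members and 18988 in the other cells, 1.52-fold (1.51 to 1.53), with a weighted log2 ratio of 0.39. Clu, the secreted chaperone clusterin, stood at 742 against 456 CPM, with 0.70 and 0.38. Fabp7, the brain fatty acid binding protein of radial glia and immature astrocytes, was nearly even at 11922 against 9968 CPM. Sparcl1, a secreted matrix protein also known as hevin, stood at 1132 CPM (1104 to 1159.5) against 637 (628 to 647), with a log2 ratio of 0.83 and 0.50 after weighting.

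The other genes named as higher were Hopx, a homeodomain protein without DNA binding, the calcium-binding proteins Efhd2 and S100a1, the mitochondrial protein Chchd10, the kinase Lyn, the lipid receptor S1pr1, the membrane linker ezrin (Ezr), Smim1, Tnfaip8, and tissue factor (F3). Hopx had the largest log2 ratio, 0.88, with 155 against 83.3 CPM, and 0.43 after weighting. The weighted ratios of the 13 ran from 0.35 in Chchd10 to 0.57 in Gja1. All 13 lay under the 1.5-fold threshold once depth was weighted.

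Over the whole list of astrocyte genes, 32 of 34 measured members had a ratio above 0, with a median of 0.48 against −0.13 over all 11717 measured genes. Of the 21 at 50 CPM, 8 were higher at 1.5-fold and 0 lower, where 1.54% of all genes were higher and 3.73% lower. After weighting for depth 0 of 21 were called, while 31 of the 34 were still above 0, with a median of 0.32 against −0.06. Within the main cluster, 27 of 34 were above 0 and the median was 0.15 against −0.04. S100b, a calcium-binding protein of astrocytes, stood at 114 CPM in members and 112 in the other cells.

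**Figure D2:**
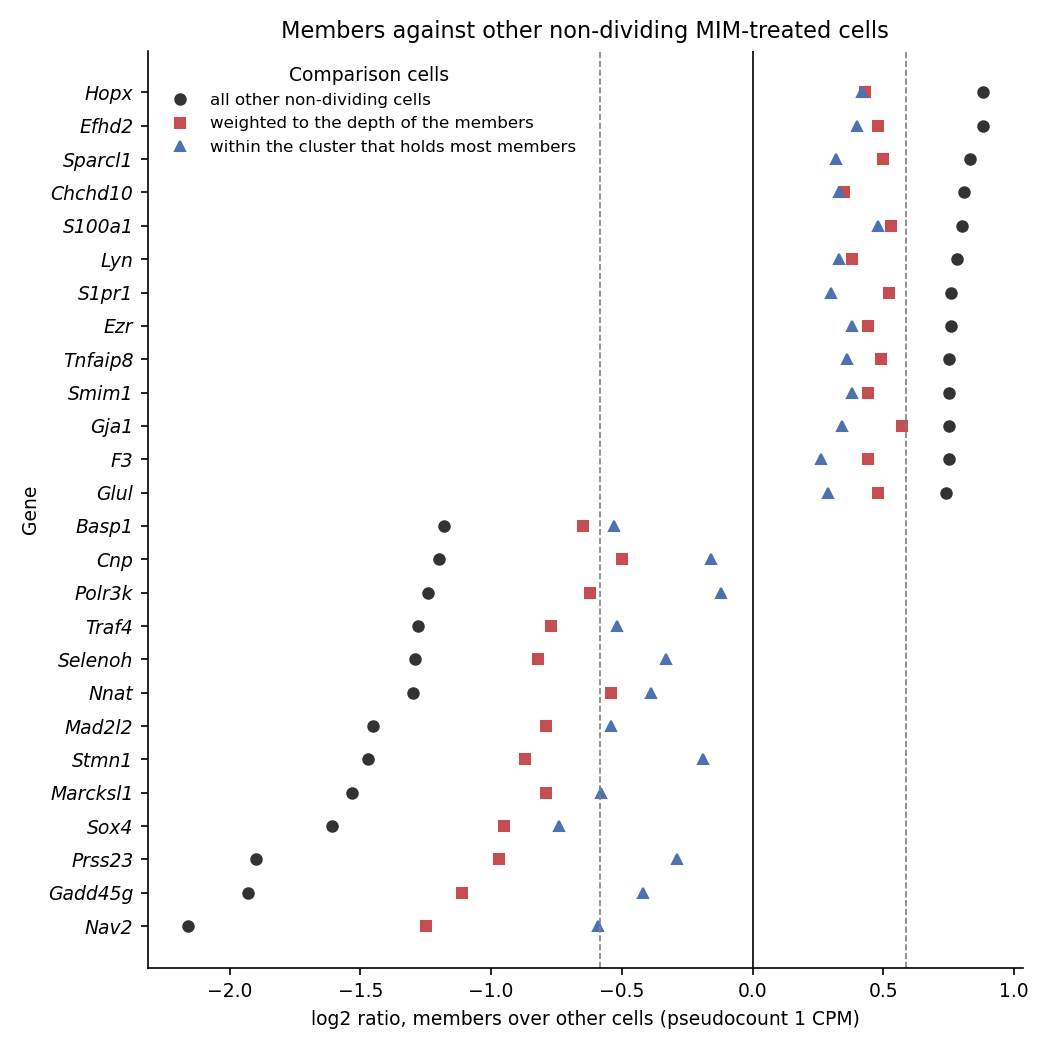
Log2 ratio of the members over other non-dividing MIM-treated cells (x axis, pseudocount 1 CPM) for the 26 named genes (y axis), against all other cells, other cells weighted to the members' depth, and other cells of the main cluster; dashed lines mark 1.5-fold. Every ratio moved toward 0 with depth weighting, from 0.88 to 0.43 for Hopx and from −2.16 to −1.25 for Nav2.

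The genes lower in the members were led by Nav2, neuron navigator 2, at 14.2 CPM (11.3 to 17.6) against 67.1 (64.0 to 70.4), 4.73-fold lower (3.79 to 5.97). Gadd45g, a growth arrest and stress gene, followed at 26.3 against 103 CPM, with a log2 ratio of −1.93 and −1.11 after weighting. Prss23, a secreted serine protease, stood at 46.1 against 174 CPM, with −1.90 and −0.97. Sox4, a transcription factor of neural precursors, stood at 59.0 CPM (52.9 to 65.7) against 183 (178 to 188), with −1.61 and −0.95 after weighting. Within the main cluster Sox4 still had a ratio of −0.74, the largest among the 13 genes named as lower.

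Marcksl1, a membrane and actin regulator of growing neural cells, stood at 141 against 409 CPM, with −1.53 and −0.79 after weighting. Stmn1, the microtubule regulator stathmin, stood at 50.4 against 141 CPM, and its ratio went from −1.47 to −0.87. The remaining named genes were Mad2l2, the imprinted gene Nnat, Selenoh, Traf4, the polymerase subunit Polr3k, Cnp and Basp1. Their ratios ran from −1.45 to −1.18 without weighting and from −0.82 to −0.50 with it.

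In the oligodendrocyte lineage list 0 of 15 measured genes were above 0, with a median of −0.91, against 3921 of 11717 over all genes. After weighting for depth 1 of 15 was above 0 and the median was −0.50, and within the main cluster 3 of 8 were above 0 with a median of −0.13. Since the rule left out cells with Olig2, Lhfpl3 or Sox8, this direction is partly built in. Olig1, the lineage factor next to Olig2, stood at 378 CPM in members, 733 in the other cells and 834 in cells with a lineage UMI, and its ratio over the other cells went from −0.95 to −0.57 with weighting. Cnp, an enzyme of myelinating cells, stood at 40.2 against 93.7 CPM, with a log2 ratio of −1.20 and −0.50 after weighting. Pdgfra and Gpr17, markers of oligodendrocyte precursors, had 0 UMIs in the members and 35 and 51 in the other cells.

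Cell cycle genes outside the rule were low as well, after cells with more than 1 UMI over 8 mitosis genes had been removed. This fixed limit is looser in shallow cells, and the other cells were shallower, so the direction can be partly built in. Of the cluster led by the cell cycle genes Prc1 and Cdk1, 128 cells passed as non-dividing. In the S phase list 3 of 30 measured genes were above 0, with a median of −0.30, and in the G2 and M phase list 1 of 26, with a median of −0.49. Immediate early genes, which respond to stimulation within minutes to hours, had a median of −0.65, with 1 of 11 above 0. Over all genes 3921 of 11717 were above 0, with a median of −0.13. After weighting for depth the medians of the 3 lists were −0.25, −0.25 and −0.36, against −0.06 over all genes. The one-carbon, methionine and serine list, which covers the pathways fed by the metabolites of the medium, had a median of −0.02, with 0 of 8 genes at 50 CPM called in either direction.

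Levels moved with depth in the other cells, and in the members for some genes only. The members were divided by their UMIs into 3 classes of near equal size, and the other cells were put into the same classes. In the shallowest class Sparcl1 stood at 1095 CPM in 457 members and at 435 in 6585 other cells, whose medians were 2989 and 2075 UMIs. In the deepest class it stood at 1139 CPM in 455 members and at 921 in 1101 other cells. Marcksl1 showed the reverse, at 201 against 604 CPM in the shallowest class and 109 against 160.3 in the deepest. Hopx stood at 100.4 CPM in members and 45.0 in other cells of the shallowest class, and at 182 and 142 in the deepest. Aqp4 stood at 63.3 CPM in members and 18.5 in other cells of the shallowest class, and at 26.5 and 26.8 in the deepest. Most of the other cells lay in the shallowest class, where all 4 of these genes differed more between the groups than in the deepest. Aldoc stood at 732, 722 and 739 CPM over the 3 classes in members and at 359.6, 575 and 587 in other cells. From the shallowest to the deepest class Apoe went from 30179.6 to 27953 CPM in members and from 15201 to 23348 in other cells.

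At a fixed depth the levels of several astrocyte genes still differed with the UMIs of Cldn10 and Slc4a4, which are the rule's own values. In MIM-treated cells meeting the negative criteria and thinned to 2000 UMIs, Apoe stood at 21112 CPM in cells with 0 UMIs, 26627 with 1, 28889 with 2 and 31680.2 with 3 or more. Kcnj10 stood at 77.7, 93.2, 124 and 151 CPM over the same classes. Marcksl1 ran the other way, at 318, 203, 167 and 119 CPM. Sparcl1 stood at 707, 931, 1161 and 1102 CPM, so the intervals of its last 2 classes overlapped. Hopx stood at 107, 119.8, 167 and 110.5 CPM, Aldoc at 502, 647, 808 and 747 and Gja1 at 63.0, 91.0, 99.2 and 95.9, and all 3 were lower in the last class than in the one before. In untreated astrocytes Apoe stood at 12579, 12987, 12743 and 15167 CPM, with 12 cells in the last class.

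**Figure D3:**
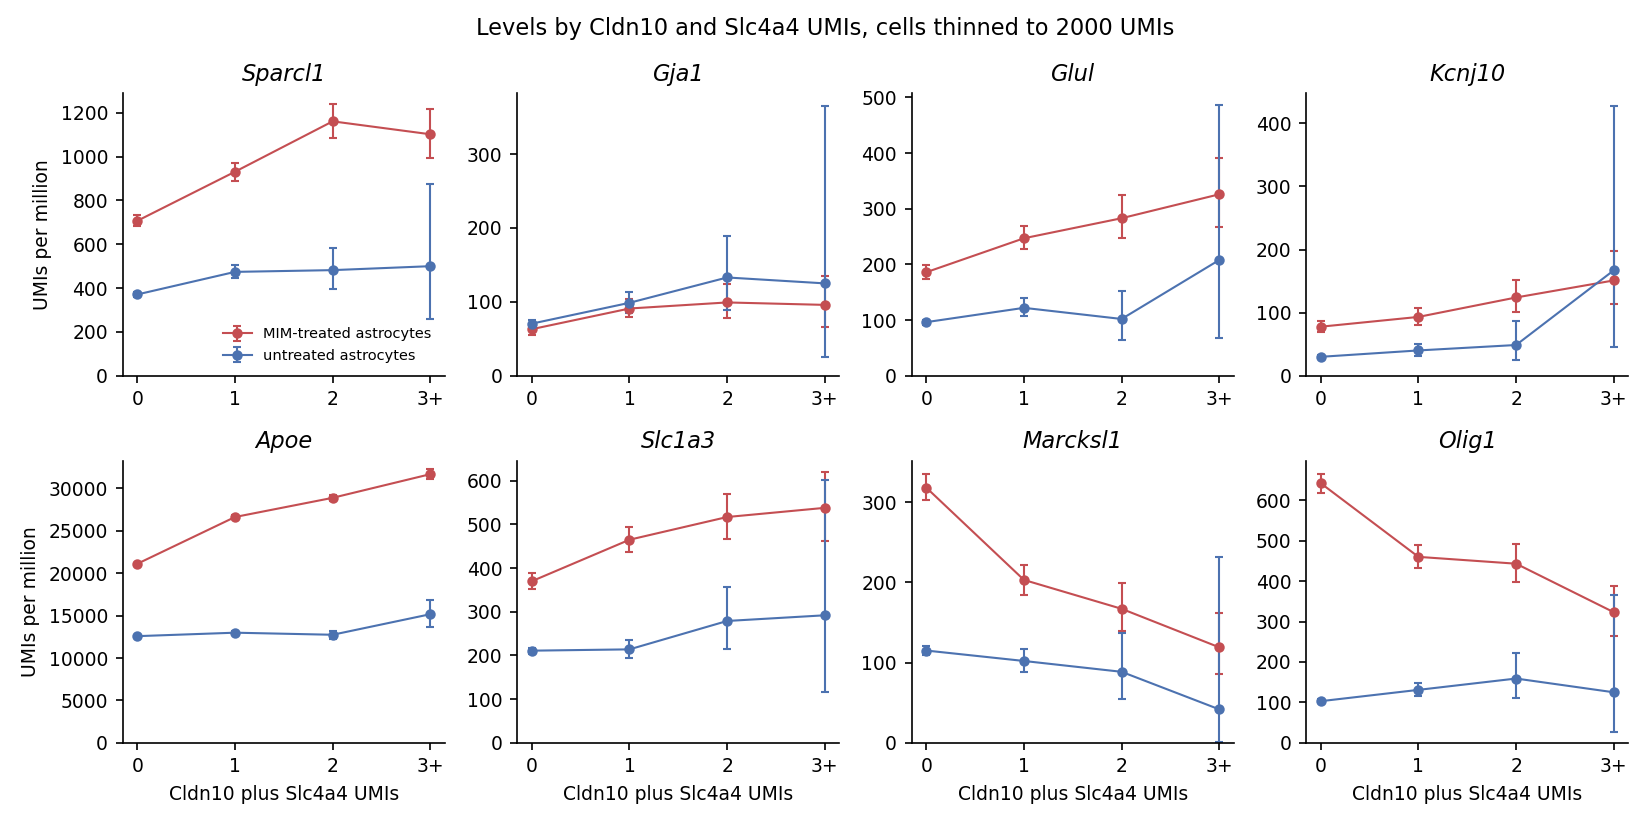
Level of 8 genes (y axis, CPM, each panel from 0) by UMIs of Cldn10 plus Slc4a4 (x axis) in cells meeting the negative criteria and thinned to 2000 UMIs; points are pooled levels and whiskers exact 95% Poisson intervals. In MIM-treated cells Apoe went from 21112 to 31680.2 CPM and Marcksl1 from 318 to 119, while the last class of untreated astrocytes held 12 cells and its whiskers are wide.

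The members were also divided by which gene had chosen them. At 1.5-fold against the other non-dividing MIM-treated cells, those with Cldn10 alone had 58 of 2358 genes higher (2.46%) and 178 lower (7.55%). Those with Slc4a4 alone had 45 of 2290 higher (1.97%) and 99 lower (4.32%), and those with both had 38 of 2285 higher (1.66%) and 124 lower (5.43%). At 2-fold the counts were 4 (0.170%) and 36 (1.53%), 2 (0.0873%) and 24 (1.05%), and 2 (0.0875%) and 30 (1.31%), in the same order. The astrocyte list had medians of 0.49, 0.51 and 0.45, and the glutamate, GABA and glycine list of 0.01, 0.42 and 0.28. Gja1 stood at 93.1 CPM in the 94 cells with Cldn10 alone, 90.4 in the 781 cells with Slc4a4 alone and 98.2 in the 492 with both. Glul stood at 175, 283 and 283 CPM, and Sox4 at 104, 62.6 and 46.1 CPM. The cells with Cldn10 alone were thus lower in Glul and higher in Sox4, over few cells. With so few cells, counting error also takes more genes past a threshold, which limits the comparison of the called counts.

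Clustered without the 15 rule genes, the MIM-treated cells fell into 5 groups, and 1279 members, or 93.6%, lay in the largest. Its leading genes were Aldoc, Sparcl1, F3, Apoe, Hopx and Glul, and it had a median of 3905 UMIs. Members made up 24.1% of its 5314 non-dividing cells, so most cells of that cluster were not members. A cluster of 1218 cells with a median of 1487 UMIs held 0 members (upper bound 0.302%). At a finer resolution the fullest cluster held 61.4% of the members.

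Markers of other cell types went both ways at low levels. Summed over their lists, neuron genes reached 52.3 CPM in members against 116 in the other cells, microglia genes 29.4 against 28.9 with 10 of 11 at 0, and pericyte and fibroblast genes 4.16 against 5.40 with 8 of 11 at 0. In 3 lists the sum was higher in the members: endothelial genes reached 1.04 against 0.501, choroid plexus genes 5.02 against 1.89 and ependymal genes 35.8 against 27.5 CPM. The part of these in the ratios was not tested.

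Against untreated astrocytes the members differed far more than against their own library. Of 2746 genes, 273 (9.94%) were higher in the members and 535 (19.5%) lower at 2-fold. Higher genes made up 33.8% of those called with library totals and 56.9% with TMM scaling, which gave 456 higher and 346 lower. TMM moved the median log2 ratio from −0.26 to 0.13, so only ratios well beyond that shift are given a direction here. Weighting the untreated cells to the members' depth left 277 higher and 551 lower. Against the 671 untreated astrocytes that met the same rule, 261 of 2755 genes (9.47%) were higher and 519 (18.8%) lower, and TMM gave 526 and 307. At 1.5-fold these were 469 (17.0%) and 953 (34.6%).

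The astrocyte genes went both ways, also within a role. Several genes of glutamate and GABA handling were higher in the members: Glul stood at 276 CPM against 103 in untreated astrocytes, 2.67-fold (2.52 to 2.82). Slc6a11 stood at 37.4 against 0.336 CPM. Slc1a3 stood at 484 against 206 CPM. In the glutamate, GABA and glycine list 4 of 7 genes at 50 CPM were higher and 1 was lower, the glutamine transporter Slc38a1. At the same 2-fold threshold, 9.94% of all genes were higher and 19.5% lower. Ion handling genes went both ways, with 3 of 11 at 50 CPM higher and 4 lower, against the same shares over all genes. Their median was −0.63, against −0.39 over all measured genes. Kcnj10 stood at 112 against 31.3 CPM, 3.57-fold higher (3.25 to 3.91), while Atp1b1 stood at 95.4 against 402 CPM.

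S100b stood at 114 CPM against 11.8, 9.63-fold higher (8.61 to 10.8), and S1pr1 at 96.4 against 12.7 CPM. The lipid genes were divided: Apoe stood at 28870.1 against 12466 CPM and Fabp7 at 11922 against 1793, while Clu stood at 742 against 4068 CPM, 5.48-fold lower (5.32 to 5.65). Aqp4 stood at 37.7 against 566 CPM, 15-fold lower (13.1 to 17.2), and Gfap at 9.18 against 272 CPM, 29.6-fold lower (22.6 to 39.5). Of the 24 astrocyte genes at 50 CPM, 9 were higher and 5 lower at 2-fold, where 9.94% and 19.5% of all genes were. The list median was 0.29 against −0.39 over all 13010 measured genes. The other non-dividing MIM-treated cells lay on the same side of untreated astrocytes in each of these genes, with 4.20 CPM of Gfap, 24.1 of Aqp4 and 112 of S100b.

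**Figure D4:**
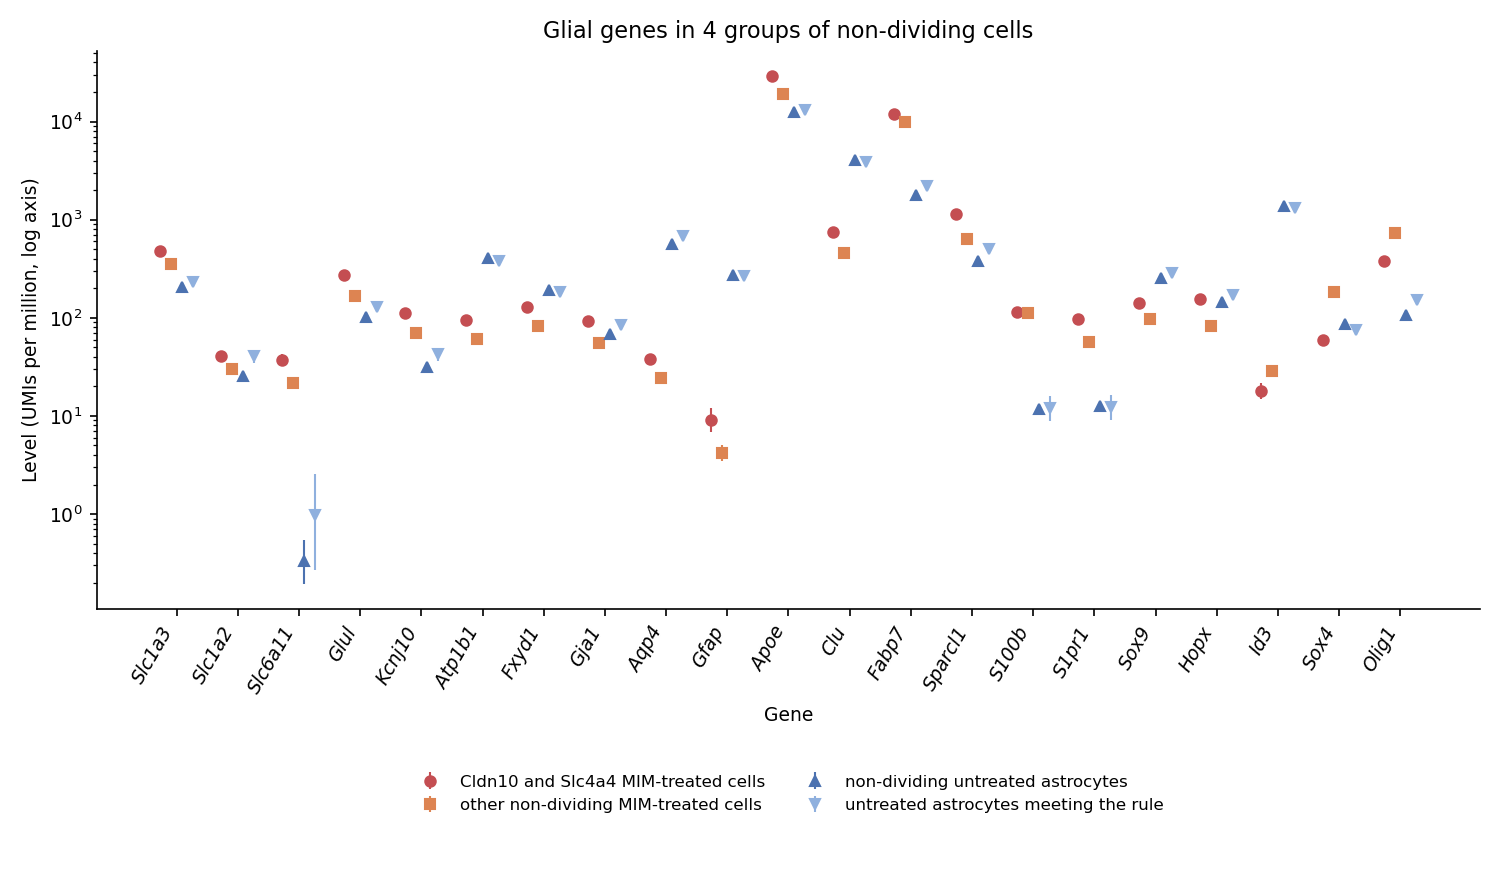
Levels of 21 glial genes (x axis) in CPM (y axis, log scale) in the members, the other non-dividing MIM-treated cells, untreated astrocytes and untreated astrocytes meeting the same rule; points are pooled levels and whiskers exact 95% Poisson intervals. Gfap lies at 9.18 and 4.20 CPM in the MIM-treated groups and at 272 and 264 in the untreated groups, while S100b lies at 114 and 112 CPM against 11.8 in all untreated astrocytes.

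Reactive astrocyte genes were low in the members: 9 of 9 at 50 CPM were lower at 2-fold, where 19.5% of all genes were lower, with a median of −2.05 over 24 measured genes. Vim, the intermediate filament vimentin, stood at 488 against 2690.4 CPM, and the complement gene C3 at 2.77 against 88.6 CPM. All 6 genes of the BMP, Id and TGF-beta list at 50 CPM were lower too, among them Id3, an inhibitor of differentiation factors induced by BMP signals, at 18 against 1378 CPM and Id1 at 6.75 against 328. Interferon and MHC class I genes were lower in 5 of 6 and immediate early genes in 4 of 4, against the same 19.5%. In the feedback list of the FGF and MAPK pathway 12 of 15 measured genes were above 0, with a median of 0.92. Over all genes 3719 of 13010 were above 0, with a median of −0.39. Only 1 gene of the feedback list reached 50 CPM: Spry2, an inhibitor induced by FGF, at 396 against 51.6 CPM. Summed over each list, the other non-dividing MIM-treated cells lay on the same side of untreated astrocytes as the members. Reactive genes reached 575 CPM in members, 518 in those cells and 3666 in untreated astrocytes. In the same order BMP, Id and TGF-beta genes reached 181, 181 and 2579 CPM. Interferon and MHC class I genes reached 492, 438 and 1119, and FGF and MAPK feedback genes 560.0, 547 and 114. Immediate early genes reached 146, 253 and 728. The media differed in serum and FGF2, whose part in these differences was not tested.

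The genes with the largest ratios in favour of the members were Lyn at 97.8 against 2.89 CPM, Cnih2, an auxiliary protein of AMPA receptors, at 270.5 against 9.84, and Igfbp4, a binding protein of insulin-like growth factors, at 205 against 9.93. Mest, Rasa3, Ptn, S100b and Hip1 followed, with Ptn, the growth factor pleiotrophin, at 4541 against 482 CPM. On the low side Serpinf1, the secreted factor PEDF, stood at 2.94 against 1015 CPM, Ass1, an enzyme of arginine synthesis, at 1.04 against 238, and the small heat shock protein Hspb8 at 13.7 against 1239. Lbp, Id3 and C1ql1 were also named, at 1.56 against 179, 18 against 1378 and 0.693 against 107 CPM. Elobl had 1 UMI in the members, a level of 0.173 CPM against 130.1. Wisp2 had 0 UMIs in the members and 67.6 CPM in untreated astrocytes, at least 130.1-fold lower against a floor of 3 UMIs over the group.

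The enzymes of the pathways fed by the metabolites of MIM were not called more often at 1.5-fold than genes at large. In the one-carbon, methionine and serine list 2 of 11 genes at 50 CPM were higher and 3 lower at 1.5-fold, where 17.2% of all genes were higher and 35.0% lower. The 3 lower ratios did not pass 2-fold and are given no direction, since TMM moved the median from −0.26 to 0.13. At 2-fold 1 was higher and 0 lower, where 9.94% and 19.5% of all genes were: Psph, the last enzyme of serine synthesis, at 234 against 103 CPM. Phgdh, the first, stood at 205 against 237 CPM, and Mat2a, which makes S-adenosylmethionine, at 31.9 against 63.0 CPM.

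The same rule separated cells differently in the other libraries. Within untreated astrocytes the 671 cells meeting it differed from the other 9137 by at least 1.5-fold in 2 of 2640 genes upward (0.0758%) and 2 downward (0.0758%), and at 2-fold in 1 upward (0.0379%) and 0 downward, and the astrocyte list had a median of 0.10 with 0 genes called. In neural stem cells the 123 cells meeting it had 329 genes of 2644 higher (12.4%) and 368 lower (13.9%) at 1.5-fold, and 115 (4.35%) and 116 (4.39%) at 2-fold. There, 21 of 24 astrocyte genes at 50 CPM were 1.5-fold higher, none was lower, the list median was 0.97, and Gja1 stood at 313 against 72.4 CPM and Sparcl1 at 1443 against 386. These 123 cells held 236284 UMIs, so single genes rest on few counts. The 671 untreated cells held 4055865 UMIs. Counting error takes more genes past a threshold in the smaller group, so the 2 sets of counts are not on an equal footing. The difference between the libraries was not tested.

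**Figure D5:**
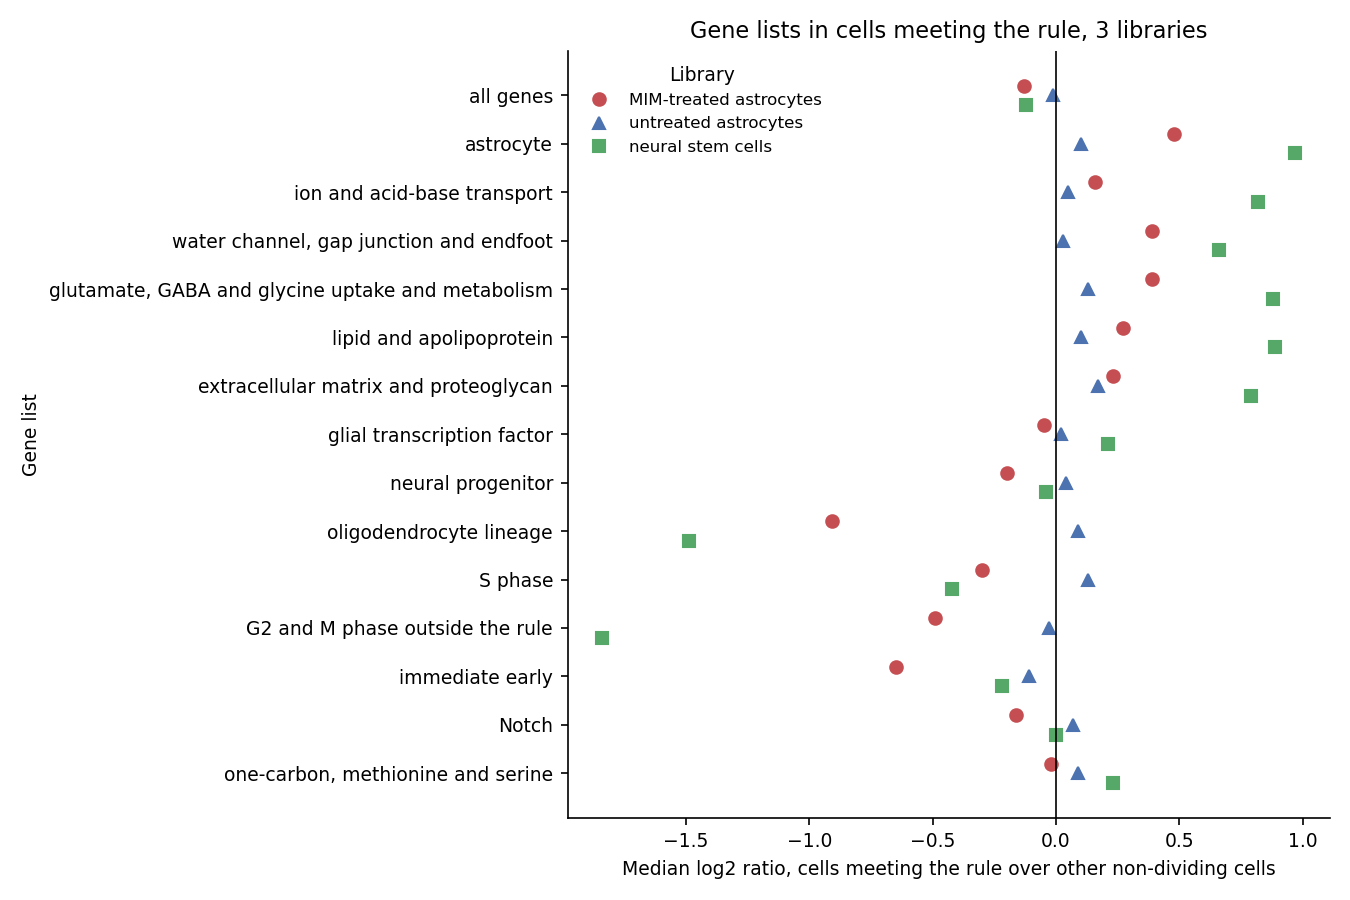
Median log2 ratio of 14 gene lists and of all measured genes (y axis) in cells meeting the rule over other non-dividing cells (x axis), in each of 3 libraries. The astrocyte list lay at 0.48 in MIM-treated astrocytes, 0.10 in untreated astrocytes and 0.97 in neural stem cells, and the oligodendrocyte lineage list at −0.91, 0.09 and −1.49.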

How the data were processed

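The deposited matrices hold UMI counts for 31053 genes in 3 libraries, made with Cell Ranger 3.0.2 and the mm10 reference, per the labels' protocols. The submitters' processing notes also name Seurat 3.1.1 without a role. Gene coordinates came from GENCODE and matched all 633 listed genes by ID.

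UMIs were summed over the cells of a group and divided by the group total. A pseudocount of 1 CPM entered every log2 ratio. Genes were called at 2-fold, or at 1.5-fold as an addition chosen after seeing the data, with at least 50 CPM in either group. Non-dividing cells had at most 1 UMI over the 8 mitosis genes. Intervals are exact at 95%. List genes were measured with at least 20 UMIs in both groups together. Depth weighting put comparison cells into bins at the members' deciles of UMIs per cell. Named genes were the 13 with the largest and the 13 with the smallest ratio against the other cells (8 and 8 against untreated astrocytes), without mitochondrial, ribosomal, haemoglobin, sex-linked and clone-like names, with further genes from the lists. Since 0 genes were higher at 2-fold, the 13 higher genes came from the added threshold. Clusters used scanpy 1.11.5, 2000 variable genes, 30 components, 15 neighbours and Leiden resolution 0.5. TMM came from edgeR 4.0.16. Calls were tested on simulated counts, pooled at the totals of the members and the other cells. The simulation held no differences in depth between cells, so it cannot show how depth affects the calls.

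The members and the 31 gene lists were chosen with earlier results of these data known. Alternatives changed scaling, pseudocount, expression minimum, cell weights, depth, cell filters, the UMI threshold, doublet scores and resolution. Comparisons with cells holding 0 UMIs of Cldn10 and Slc4a4, and within the main cluster, were chosen after seeing the data.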

Additional observations from a re-analysis of the deposited data

Results flagged for a closer look

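The log2 ratio of Clu, the secreted chaperone clusterin, in cells meeting the rule over the other non-dividing cells was 0.70 in the MIM-treated library and −0.07, close to 0, in the untreated library. At a fixed depth Clu in untreated astrocytes stood at 4162, 3988, 4579.6 and 4208 CPM with 0, 1, 2 and 3 or more UMIs of Cldn10 and Slc4a4, with no direction. These ratios had opposite signs, as did those of 2 other genes. Nnat had ratios of −1.30 and 0.29, and Tnfaip8 of 0.75 and −0.18, in the same order. The difference between the libraries was not tested in any of the 3 genes, and each library is a single sample.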

How the results depend on the processing

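Against the other MIM-treated cells, 0 of 504 ratios (36 genes under 14 alternatives) were counted as reversed. A change of sign was counted only where the main ratio was at least 1.5-fold, so genes with smaller ratios could not be counted. Among all single-gene values, which include ratios over untreated astrocytes and shares of cells, 521 were labelled the same and 277 moved. A ratio was labelled moved outside the interval of its main value. The counts of called genes moved widely. Of 0 genes higher at 2-fold, TMM gave 1, equal weight per cell 7 and a comparison with cells holding 0 UMIs of Cldn10 and Slc4a4 gave 2. Of 25 lower at 2-fold, a pseudocount of 10 CPM gave 16, a minimum of 20 CPM 53, 100 CPM 10, equal weight 51, depth weighting 1, cells with 0 UMIs weighted for depth 0 and the main cluster 0. Of 35 higher at 1.5-fold, TMM gave 70, 20 CPM 64, 100 CPM 22, equal weight 72, depth weighting 0, cells with 0 UMIs weighted for depth 7 and the main cluster 0. Of 85 lower at 1.5-fold, 20 CPM gave 216, 100 CPM 41, equal weight 204, depth weighting 15, cells with 0 UMIs 132, the same weighted for depth 8 and the main cluster 1. TMM moved the median from −0.10 to 0.02. Against untreated astrocytes, TMM gave 456 higher and 346 lower, and minimums of 20 and 100 CPM gave 1094 and 268 lower. Against untreated astrocytes meeting the rule these were 526, 307, 1055 and 262. The cause was not tested, except that a minimum changes the number of genes tested. The members' share was 4.54% at 3 or more UMIs, 17.8% at 1 or more and 6.50% after thinning, and 61.4% of members lay in the fullest cluster at resolution 1.0. The other 70 values kept within 1.5 times or their interval. No paired analysis was possible because each group was 1 library. Depth limits the scarce genes: a level of 0 in the members allows up to 3 UMIs in 5775206.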
